A study of Bos taurus with 8 samples.

Results

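The scRNA-seq libraries of bovine peripheral blood mononuclear cells (PBMC) taken 4 h and 2 h after lipopolysaccharide (LPS) were compared, to find which transcripts were lower and which were higher once the first hours of the response had passed. The cells compared were all barcodes with at least 200 detected genes in these libraries, 18390 of the 30732 such barcodes in the 4 scRNA-seq libraries of the study. The 2 h library gave 10417 of them and the 4 h library 7973. Blood of 4 lactating Holstein cows, 2 years old, was pooled and then divided into a part without LPS and parts that were kept with 2 µg/ml of LPS, 1 each for 2 h, 4 h and 8 h. PBMC were isolated after the treatment, so all leukocytes, red cells and platelets of the blood were present during it. Both libraries compared here came from the same pooled blood and both had received LPS. The treatments thus differed in time with LPS, with 1 library each, and the pool stands for these 4 animals alone. No incubation time was given for the blood without LPS, and its values, like those at 8 h, are printed here only as context.

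LPS, a glycolipid of the Gram-negative outer membrane, is presented by CD14 to the receptor TLR4 with its partner MD-2, encoded by LY96. Signals from TLR4 switch on NF-kB and AP-1 within a short time, and these drive a first wave of transcripts for cytokines, chemokines and their own inhibitors. A slower branch through TLR4 induces type I interferon, which acts on the receptor IFNAR of neighbouring cells and, through a complex that holds STAT2 and IRF9, switches on the interferon-stimulated genes of antiviral defence. Monocytes carry much CD14, whereas most lymphocytes carry the interferon receptor and little TLR4.

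The kept barcodes held 63761174 unique molecular identifiers (UMIs, each standing for 1 captured transcript molecule) at 2 h and 56449927 at 4 h. The median barcode had 4182 UMIs and 1385 genes at 2 h and 4937 UMIs and 1550 genes at 4 h, and the median mitochondrial share was 2.16% and 2.19%. Between the libraries 24 barcode sequences were shared. Levels are given as CPM, the UMIs of a gene over all barcodes of a library or gate per 1000000 UMIs there. With 1 library on each side no test was possible, so no ratio has a replicate check, and differences between the libraries in handling cannot be told apart from time. The 95% intervals printed cover the error of counting alone. A gene was said to rise or fall when its CPM differed at least 2-fold, among genes with at least 50 UMIs over both libraries.

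Barcodes were sorted into gates by raw UMIs of marker genes. The T gate (CD3D, CD3E and CD3G, chains of the CD3 complex) held 4532 barcodes at 2 h and 3695 at 4 h, 43.5% (interval 42.6 to 44.5) and 46.3% (45.2 to 47.4). For the B gate (markers including CD79A, CD79B and MS4A1) the numbers were 2631 and 2112, 25.3% and 26.5%. The NK gate, set by the natural killer receptor NCR1, held 106 and 95 barcodes. The monocyte gate (CD14, CSF1R, CD68 and CLEC7A) held 355 barcodes at 2 h, 3.41% (3.07 to 3.77), and 176 at 4 h, 2.21% (1.90 to 2.55), while its median UMI count was 13680 and 7516.5. When barcodes were first thinned to 1000 UMIs, those below were left out (460 at 2 h, 315 at 4 h). The direction then turned, with monocyte shares of 1.36% at 2 h and 1.46% at 4 h. No change in monocyte number was therefore read from the share. The granulocyte gate (CSF3R, CXCR1 and CXCR2) held 121 and 83 barcodes with a median of 1344 and 1289 UMIs. Mixed barcodes, which passed the thresholds of several gates but met the full rule of none, numbered 473 (4.54%) and 447 (5.61%) and were kept out. They had medians of 17159 and 17715 UMIs, and 281 and 252 of them carried monocyte markers. A further 2199 and 1365 barcodes, 21.1% and 17.1%, met no gate.

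Longer lists of marker genes, which include those that set the gates, were summed for each gate. A high sum in a list's own gate follows in part from the gating, so the sums are no separate check of the names. Within the T gate, 12 T cell markers summed to 1854 CPM at 2 h and 1830 CPM at 4 h, against 59.9 and 41.1 CPM in the B gate. B cell markers summed to 2529 and 2329 CPM in the B gate, and NK cell markers to 3669 and 3589 CPM in the NK gate. In the monocyte gate, monocyte markers were as high at 4 h as at 2 h, at 3707 and 3787 CPM, and neutrophil markers were at 4701 CPM at 2 h and 6741 CPM at 4 h. Most of the latter sum was S100A12, at 4645 and 6529 CPM, an alarmin that monocytes also make. Of the barcodes of the gate 48 (13.5%) at 2 h and 62 (35.2%) at 4 h had 2 or more granulocyte marker UMIs. Some results of the monocyte gate are therefore given below also without these barcodes, which leaves 307 and 114. The neutrophil marker sum of the barcodes left was 4610 and 6398 CPM, close to that of the whole gate. All other values printed for the monocyte gate include the granulocyte-marked barcodes.

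Over all barcodes 103 of 11433 genes (0.901%) rose and 133 (1.16%) fell. The median log2 ratio of 4 h over 2 h was 0.06, and 90% of the genes lay between -0.49 and 0.51. Of the genes that rose, 35 were in a list of interferon-stimulated genes, and 37 were in a list of interferon genes of any kind. Of those that fell, 18 were inflammatory cytokines, chemokines or effectors and 9 were in a list of monocyte host defence genes. By contrast, 1 inflammatory gene, CSF1, rose and 1 interferon gene, IFNG, fell. Genes without a name of their own made up 15 of the rises and 16 of the falls. Single barcodes carried some ratios. At least 50% of the UMIs in the higher library came from 1 barcode for 2 of the 103 (PLAT and CD5L, named after their values were seen) and 7 of the 133, and at least 10% for 9 and 31.

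**Figure D1:**
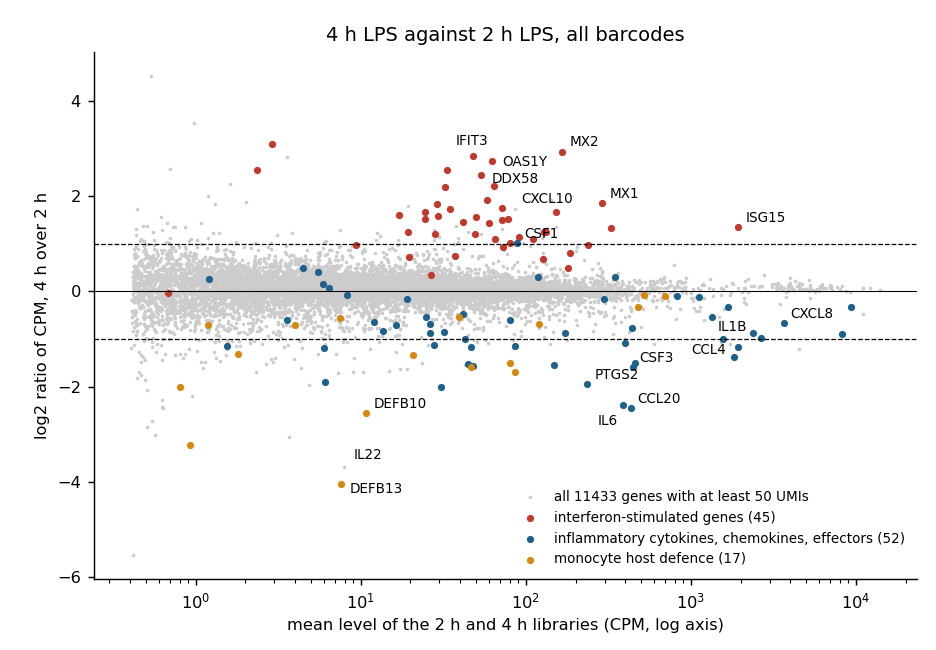
Each grey point is 1 of 11433 genes, with its mean CPM of the 2 h and 4 h libraries on a log axis across and the log2 ratio of 4 h over 2 h upward; dashed lines mark 2-fold. Of the interferon-stimulated genes (red), 35 of 45 lie above the upper line, and the inflammatory genes (blue) and host defence genes (orange) lie mostly below 0, with 18 of 52 and 9 of 17 under the lower line.

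The 12 highest ratios among genes with at least 500 UMIs were 11 interferon-stimulated genes and a gene named CALCB. MX2, a dynamin-like GTPase that blocks viruses, was at 27.8 CPM without LPS, 38.5 CPM at 2 h, 294 CPM at 4 h and 56.2 CPM at 8 h. Its level at 4 h was 7.65-fold that at 2 h (interval 7.33 to 7.98), and the barcodes with at least 1 UMI numbered 1110 and 2684. The related MX1 was at 41.3, 127, 454 and 85.5 CPM in the same order, a 3.59-fold rise from 2 h to 4 h (3.5 to 3.68). Both were highest of the 4 libraries at 4 h.

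IFIT3, which binds to viral RNA complexes, was at 11.7 CPM at 2 h and 84.3 CPM at 4 h, 7.2-fold higher (6.66 to 7.79), with 4.08 CPM without LPS and 6.70 CPM at 8 h. OAS1Y, an enzyme that makes the 2-5A signal for RNA decay, went from 16.2 to 108 CPM (6.71-fold) and OAS1X from 12.8 to 45.4 CPM. RSAD2 (viperin, which makes a chain-ending nucleotide) went from 23.0 to 106 CPM, 4.62-fold, and its genomic neighbour CMPK2 from 0.690 to 4.04 CPM. Sensors of foreign nucleic acid were among the rises. DDX58, the RNA sensor RIG-I, was at 16.6 and 90.0 CPM, 5.41-fold. ZBP1, which detects Z-form nucleic acid, was at 11.6 and 53.0 CPM, and EIF2AK2, the kinase PKR, at 32.8 and 111 CPM. IFI44 rose 5.84-fold and IFI44L 3.78-fold. The exception, CALCB, a gene that names a calcitonin-related peptide, was at 8.72 and 30.1 CPM in 100 and 122 barcodes; the same name was borne by more than 1 identifier, and this one was ENSBTAG00000001516.

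**Figure D2:**
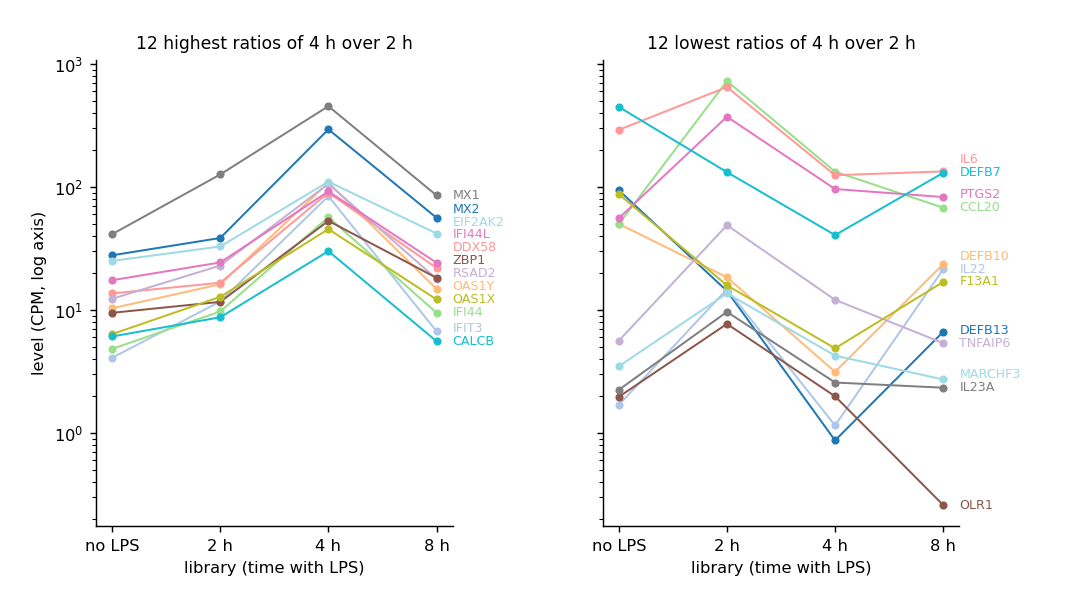
Level in CPM (log axis) of the 12 genes with the highest and the 12 with the lowest ratio of 4 h over 2 h, in the library without LPS and at 2 h, 4 h and 8 h, 1 library a point with no error shown. All 12 genes on the left are highest at 4 h, with MX2 at 38.5 CPM at 2 h and 294 CPM at 4 h. On the right the highest library differs, since CCL20 and PTGS2 are highest at 2 h but DEFB13 and DEFB7 are highest without LPS.

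Across the list of interferon-stimulated genes, 45 of 50 could be measured, of which 35 rose and none fell. The median log2 ratio was 1.45, beside 0.06 for all genes. Their summed level was 1496 CPM without LPS, 2997 CPM at 2 h, 7713 CPM at 4 h and 2246 CPM at 8 h. ISG15, a ubiquitin-like protein that is attached to other proteins and is also secreted, made up much of it, at 172, 1091, 2769 and 349 CPM in that order. From 2 h to 4 h it rose 2.54-fold (2.52 to 2.56), and 4318 and 5505 barcodes held at least 1 UMI of it. OAS2 had a high ratio of 8.54 on few counts, 39 and 295 UMIs. Members under 2-fold were PLAC8 (log2 ratio -0.04), GBP5 (0.35), SP110 (0.48), TRIM25 (0.69), IFI35 (0.71), IFI27 (0.75), IFIH1 (0.81), PARP9 (0.93), ISG20 (0.97) and TRIM21 (0.97). Genes of the OAS1, IFIT and MX families are similar in sequence, so that counts of single members may be split unevenly.

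The genes that carry the interferon signal stood apart from those it switches on. Of 17 signal transduction genes 2 rose and none fell, and the median of 0.04 turned to -0.02 with TMM scaling and -0.03 with DESeq2 size factors. The 2 were IRF7, the factor that amplifies interferon transcription (85.5 and 217 CPM, 2.54-fold), and USP18, a protease that removes ISG15 and damps the receptor (76.2 and 181 CPM, 2.38-fold). STAT2 was at 22.1 and 41.3 CPM and IRF9 at 124 and 174 CPM, both under 2-fold. The receptor chains were at similar levels in both libraries, with IFNAR1 at 56.2 and 54.2 CPM and IFNAR2 at 71.7 and 70.8 CPM. Among interferons themselves, the transcripts named IFNB3, IFNAG, IFNK and IFNE (type I) and IFNL3 (type III) had no UMI in any of the 4 libraries, which allows up to 3 counts in each. Other interferon genes were not analysed here, so this says nothing of interferon as a whole. IFNG, the type II interferon of T and NK cells, fell from 10.6 CPM in 102 barcodes to 5.08 CPM in 95 barcodes. It was the only one of 7 measured ligand and receptor genes to fall, with none rising and a median of -0.05. CXCL10, a chemokine that draws cells with CXCR3, rose from 39.5 to 131 CPM (3.33-fold, 3.18 to 3.48); it was at 13.2 CPM without LPS and 47.1 CPM at 8 h, and the other CXCR3 ligands had too few UMIs to be measured.

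Among the lowest ratios were transcripts of inflammation and antimicrobial peptides. IL6, a cytokine of fever and the acute phase, was at 291 CPM without LPS, 650 CPM at 2 h, 125 CPM at 4 h and 134 CPM at 8 h. It fell 5.22-fold from 2 h to 4 h (5.09 to 5.35), in 1021 and 338 barcodes. CCL20, the ligand of CCR6, was at 49.9, 728, 133 and 67.9 CPM in the same order and fell 5.46-fold (5.33 to 5.6). PTGS2, the inducible enzyme of prostaglandin synthesis, was at 55.7, 373, 96.3 and 82.8 CPM, a 3.87-fold fall. For these 3 genes the 2 h library was the highest of the 4. TNFAIP6, an anti-inflammatory protein of the matrix, was at 48.9 and 12.1 CPM. IL23A, a subunit of IL-23, was at 9.65 and 2.57 CPM, OLR1, a scavenger receptor, at 7.70 and 1.98 CPM, and MARCHF3, a ubiquitin ligase, at 13.6 and 4.25 CPM.

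Of 31 measured cytokines and chemokines 11 fell and 1 rose, with a median of -0.87. With the share of each gate held as at 2 h 7 fell, and 18 fell under the study's limits on cells or over gated barcodes alone. The falls also took in CSF3, the granulocyte growth factor (665 to 221 CPM, 3.01-fold), IL1A (219 to 75.5 CPM), CCL8 (676 to 238 CPM), CXCL3 (2637 to 1020 CPM), CCL4 (2683 to 1200 CPM), IL10 (119 to 53.3 CPM), IL27 (38.2 to 17.5 CPM) and IL12B, which had 136 and 54 UMIs with 66.9% of the former in 1 barcode. The gene that rose was CSF1, the monocyte growth factor, at 58.6 and 118 CPM, with a log2 ratio of 1.01 that was just past 2-fold. No gene of the list rose with TMM or DESeq2 scaling, under the study's limits on cells, with barcodes weighted equally or over gated barcodes alone. IL1B (3530 and 1788 CPM, log2 ratio -0.98), TNF (56.7 and 28.5 CPM, -0.99) and CCL2 (2088 and 1045 CPM) lay just inside 2-fold, and 14 genes of the list fell with TMM or DESeq2 scaling. CXCL2, a neutrophil chemokine, was at 10736 and 5811 CPM. CXCL8 was at 4469 and 2808 CPM and CXCL5 at 10462 and 8273 CPM, beside 21864 CPM of CXCL5 without LPS. Summed over the list, the level was 54812 CPM without LPS, 45360 CPM at 2 h, 26982 CPM at 4 h and 39946 CPM at 8 h, so that the sum, unlike IL6 and CCL20, was highest without LPS. Among 21 inflammatory effectors 7 fell and none rose (median -0.84), with 4 falls at the gate shares of 2 h, 14 under the study's limits and 13 over gated barcodes alone. The 7 were TNFAIP6, PTGS2, the coagulation starter F3 (71.2 to 24.0 CPM), GCH1 (65.9 to 22.8 CPM), EREG, EDN1 and SERPINB2.

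Host defence genes of monocytes gave 9 falls and no rise among 17 measured, with a median of -1.31. Their sum was 6621 CPM without LPS, 2395 CPM at 2 h, 1868 CPM at 4 h and 5667 CPM at 8 h. DEFB13, a beta-defensin, was at 94.1 CPM without LPS, 14.3 CPM at 2 h, 0.868 CPM at 4 h and 6.63 CPM at 8 h, 16.4-fold lower at 4 h than at 2 h (12.3 to 22.4) in 139 and 33 barcodes. DEFB7 was at 448, 132, 40.6 and 130 CPM, and DEFB10 at 50.1, 18.4, 3.14 and 23.6 CPM, with 37.8% of its 2 h UMIs in 1 barcode. VCAN, a proteoglycan of classical monocytes, was at 118 and 41.8 CPM, DEFB4A at 70.2 and 23.4 CPM and SPP1 at 29.7 and 11.8 CPM. The scavenger receptor CD163 had 82 and 18 UMIs, and PGLYRP1 had 106 and 10 UMIs with 80.2% of the former in 1 barcode. Counts may be shared between the beta-defensins, which are close in sequence. F13A1, the coagulation factor XIII A chain of monocytes and platelets, fell from 15.9 to 4.87 CPM. These genes moved with the monocyte markers, which summed to 714 CPM at 2 h and 540 CPM at 4 h over all barcodes (3 of 11 fell, none rose), and fewer cells of a type and less RNA per cell cannot be told apart in such sums. With the share of each gate held as at 2 h, the median was -0.57 for cytokines, -0.47 for effectors and -0.67 for host defence genes. Within the monocyte gate 4 of 13 host defence genes fell and none rose, with a median of -0.08 beside 0.30 for all genes there. The host defence median of that gate was -0.49 with TMM scaling and -0.48 with DESeq2 size factors.

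IL22, a cytokine of activated T cells that acts on epithelium, fell from 14.7 to 1.15 CPM, but on few cells. Its UMIs came from 34 and 8 barcodes, with 39.7% and 58.5% of them in a single one. At 8 h it was at 21.4 CPM.

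Over all barcodes, regulators of the first wave shifted less than its products. Of 32 NF-kB subunits and feedback inhibitors none rose or fell by 2-fold, although 29 were lower at 4 h, with a median of -0.24. The all-gene median was 0.06 and the lower quartile -0.07. NFKBIA, the inhibitor that NF-kB induces to hold itself in the cytoplasm, was at 1748 and 1197 CPM, TNFAIP3 (A20) at 327 and 183 CPM and BIRC3 at 324 and 202 CPM. The subunit NFKB1 was at 326 and 276 CPM. Among 24 immediate early genes, 20 were lower and none passed 2-fold (median -0.24), with JUNB at 495 and 346 CPM, IER3 at 438 and 236 CPM and EGR1 at 24.3 and 18.0 CPM. The LPS receptor genes had ratios near 1, with TLR4 at 21.1 and 18.9 CPM, CD14 at 214 and 185 CPM and LY96 at 25.2 and 25.1 CPM. None of 15 measured members of that list passed 2-fold, and its median of 0.01 turned to -0.05 with TMM scaling and -0.06 with DESeq2 size factors. In the NK gate the NF-kB list had a median of -0.60 and 3 falls among 21 genes, beside -0.71 for 7 cytokines and chemokines. Its median in the monocyte gate was 0.08, and -0.32 and -0.31 with TMM and DESeq2 scaling. The monocyte gate held 7.63% of all UMIs at 2 h and 3.28% at 4 h, and its part in the all-barcode medians was not tested.

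The T gate, 4532 and 3695 barcodes, gave 67 rises (0.683%) and 55 falls (0.560%) among 9815 genes. MX2 rose from 8.22 to 82.3 CPM there, 10.0-fold (8.61 to 11.7), OAS1Y from 13.8 to 118 CPM and MX1 from 33.1 to 276 CPM (8.33-fold, 7.72 to 9.0). IFIT3 went from 6.76 to 48.6 CPM, IFI44 from 9.63 to 44.2 CPM and IFIT1 from 12.7 to 53.8 CPM. ISG15 rose 3.47-fold, from 456 to 1582 CPM. In barcodes with CD4 it was at 483 and 2085 CPM, and in those with CD8 at 166 and 636 CPM, so the rise was found in both. Of 45 interferon-stimulated genes 31 rose and none fell, with a median of 1.26 beside 0.01 for all genes.

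Several of the lowest ratios in T gate barcodes rested on few cells, while CCL4 was seen in more. CCL4, a chemokine of cytotoxic cells and monocytes, fell 4.79-fold, from 167 CPM in 983 barcodes to 34.8 CPM in 410. A single barcode held 15.5% of the CCL4 UMIs at 2 h. IL6 fell from 10.9 to 2.39 CPM, with 10.5% and 54.9% of its UMIs in 1 barcode at 2 h and 4 h. GPR84, a receptor of fatty acids on myeloid cells, fell from 17.6 to 3.56 CPM, with 18.6% and 22.4% in 1 barcode. IL22 (30.3 to 1.08 CPM), TAP (12.1 to 1.13 CPM) and MZB1 (9.94 to 1.78 CPM) had 54.4%, 90.9% and 64.4% of their 2 h UMIs in 1 barcode. Among T cell cytokines, IFNG fell from 12.9 to 5.63 CPM in 45 and 45 barcodes, while IL17F was at 41.8 and 27.2 CPM and IL17A at 5.52 and 8.35 CPM. The activation list as a whole had 1 rise and 2 falls among 30 genes and a median of 0.11. Levels of 12 inflammatory genes of monocytes in this gate were 0.055% to 1.08% of those in the monocyte gate, and whether they came from T cells was not tested.

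In the B gate 124 of 9348 genes rose (1.33%) and 131 fell (1.40%), with an all-gene median of -0.01. Some interferon-stimulated genes were at a higher level here than in the T gate, as MX2 and ISG15, while OAS1Y and RSAD2 were lower. MX2 went from 98.6 to 685 CPM (6.95-fold), IFIT3 from 19.5 to 146 CPM, OAS1Y from 10.8 to 89.0 CPM and DDX58 from 20.3 to 139 CPM. RSAD2 was at 17.0 and 74.2 CPM, beside 34.5 and 144 CPM in the T gate. IFI44 was at 14.3 and 94.2 CPM and IFI44L at 26.9 and 134 CPM. MX1 was at 313 CPM already at 2 h and at 817 CPM at 4 h, and ISG15 at 2072 and 4692 CPM. Of 44 list members 35 rose and none fell, median 1.45. B gate barcodes supplied 67.7% of all MX1 UMIs at 2 h and 49.8% at 4 h, while the T gate went from 9.30% to 22.9%.

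CXCL10 came mostly from the B gate, which held 76.5% of its UMIs at 2 h and 73.2% at 4 h. It rose there from 111 to 347 CPM (3.14-fold, 2.98 to 3.31), in 395 and 607 barcodes. Barcodes with at least 1000 UMIs were thinned to that number. Of these, 6.52% in the B gate at 2 h and 13.7% at 4 h had at least 1 UMI of CXCL10. In the T gate 0.382% and 1.07% had. Without thinning the shares were 15% and 28.7% in the B gate and 1.39% and 3.30% in the T gate, at median depths of 4535 and 5464 UMIs (B) and 4259.5 and 4933 UMIs (T). The monocyte gate had 1 and 9 UMIs of it.

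Genes of B cell activation gave 3 falls and no rise among 24 in the B gate, with a median of -0.34. Plasma cell markers moved with them in this gate, from 3804 to 2351 CPM in sum with a median of -0.61 over 10 genes and 1 fall, and their part was not tested. IRF4, a factor of plasma cell fate, fell from 143 to 69.1 CPM and TRAF1, an adaptor of TNF receptors, from 89.7 to 42 CPM. CD40, the receptor of T cell help, was at 380 and 225 CPM, CD83 at 968 and 620 CPM and BCL2A1, a survival factor, at 2046 and 1169 CPM, under 2-fold. Immediate early genes had a median of -0.70 with 1 fall among 20, ATF3, at 36.3 and 14.3 CPM. MHC class II genes had a median of -0.34, with BOLA-DRA at 2677 and 2124 CPM and IFI30, a reductase of endosomes, at 1377 and 778 CPM. The lowest ratios in this gate were again inflammatory: CCL20 (12.3 to 1.41 CPM), CCL4 (166 to 30.0 CPM), CCL8 (14.5 to 2.75 CPM), TNFAIP6 (12.2 to 1.73 CPM) and CCL2 (92.1 to 11.7 CPM, 39.7% of it from 1 barcode at 2 h), with SPP1 (98.1% from 1 barcode). A single barcode also held 28.8% of the CCL20 UMIs, 22.0% of CCL4, 31.7% of CCL8 and 23.6% of TNFAIP6 at 2 h. Levels of the 12 inflammatory genes set against the monocyte gate were 0.047% to 2.68% of those there, and whether they came from B cells was not tested.

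**Figure D3:**
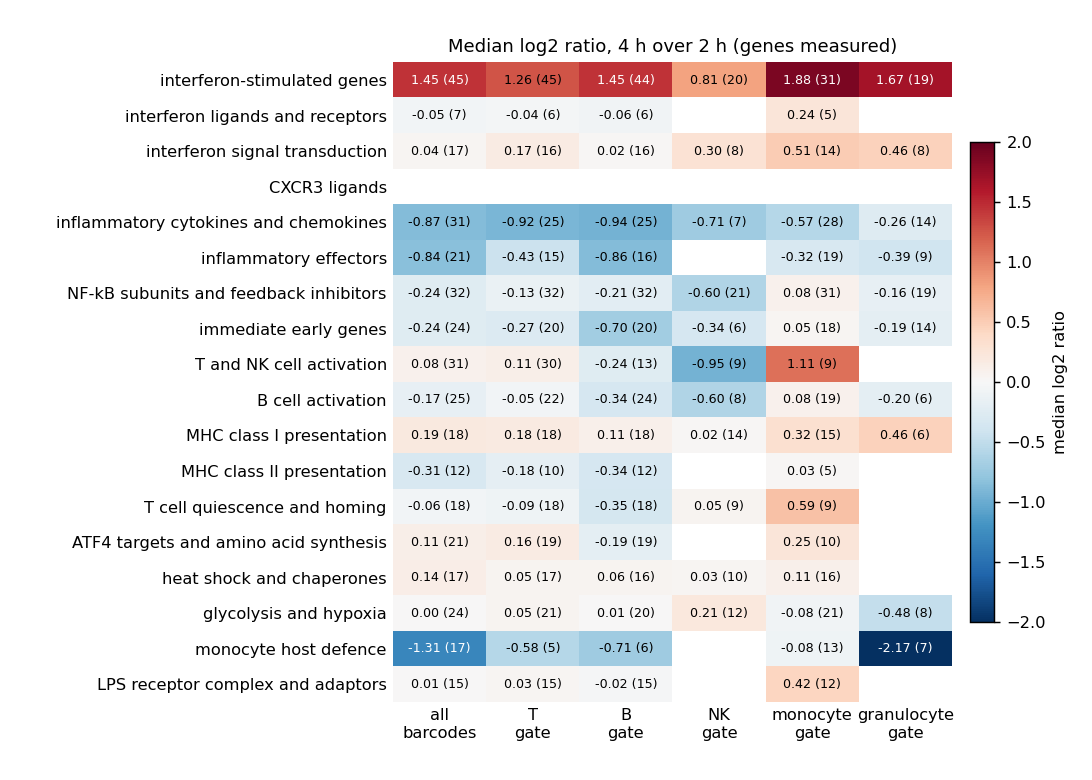
Median log2 ratio of 4 h over 2 h for each gene list over all barcodes and in each gate, with the number of genes measured in brackets and lists of fewer than 5 left blank. Interferon-stimulated genes are positive in all 6 columns (0.81 to 1.88); with TMM or DESeq2 scaling the monocyte gate values of the NF-kB, immediate early, B cell activation, MHC, ATF4, heat shock and interferon ligand lists turn negative, as do the all-barcode values of signal transduction, glycolysis and the LPS receptor list and, with TMM alone, signal transduction and MHC class I in the granulocyte gate.

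The NK gate was small, with 106 and 95 barcodes, and 13 of 2370 genes rose (0.549%) and 20 fell (0.844%); DESeq2 size factors gave 17 and 17. CCL4 fell 8.69-fold, from 577 CPM in 43 barcodes to 66.4 CPM in 17. A single barcode held 33.2% of these UMIs at 2 h and 27.8% at 4 h. TNFRSF18, a costimulatory receptor, fell from 345 to 129 CPM, the factor BATF from 682 to 256 CPM and NFKBIA from 531 to 205 CPM. CTSD and CCL3 were next, at 1.84-fold and 1.76-fold lower. IFNG was at 0 without LPS, at 180 CPM in 14 barcodes at 2 h and at 36.9 CPM in 8 at 4 h, 4.88-fold lower (2.99 to 8.36). Of 9 T and NK cell activation genes 4 fell and none rose, with a median of -0.95. MX1 rose from 14 to 134 UMIs, 26.8 to 247 CPM, and 5 of 20 interferon-stimulated genes rose with a median of 0.81. The 6 highest ratios at 200 UMIs or more were all under 2-fold: ISG15 at 479 and 885 CPM, NUPR1, EPSTI1, TNFSF10 (a death ligand, 247 and 435 CPM), ISG20 and FTL.

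**Figure D4:**
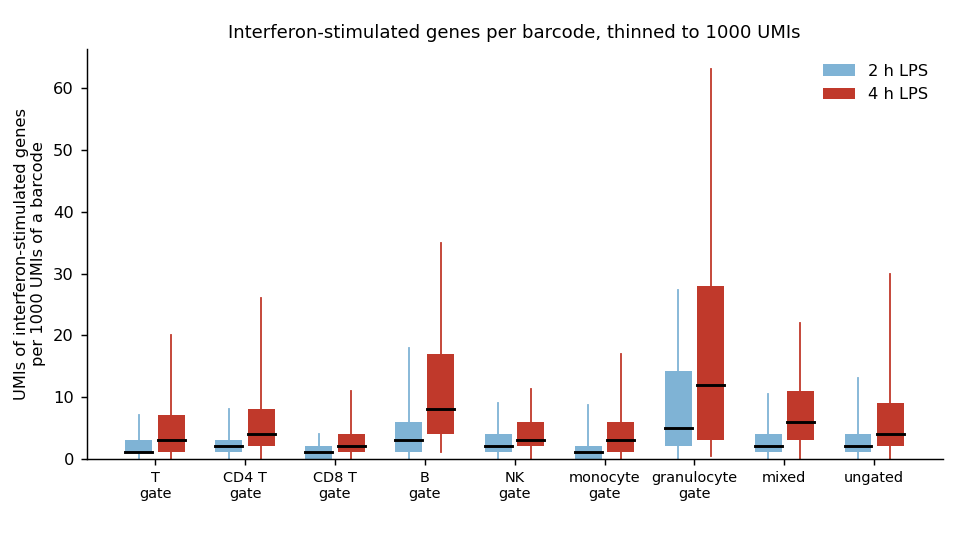
UMIs of the interferon-stimulated gene list per 1000 UMIs of a barcode after thinning, by gate; bars span the quartiles, thin lines the 5th to 95th percentile and black marks the median over barcodes, which are not replicates. The median is higher at 4 h in every gate drawn, from 3 to 8 in the B gate and from 1 to 3 in the T gate.

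Counted barcode by barcode, the rise was spread over many cells. With each barcode thinned to 1000 UMIs and those below left out (460 at 2 h and 315 at 4 h), the median barcode had 2 interferon-stimulated UMIs at 2 h and 4 at 4 h. In the B gate the medians were 3 and 8, and the share with at least 10 was 12.4% and 46.2%. The T gate medians were 1 and 3, with 2.58% and 17.1% at 10 or more. Barcodes with none made up 23.0% and 11.7% of the T gate and 9.76% and 2.90% of the B gate. ISG15 was seen in 24.4% and 50.5% of all thinned barcodes, and in 41.5% and 69.0% before thinning. Among CD8 T barcodes 0.678% and 6.25% had 10 or more.

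Within the monocyte gate 416 of 5080 genes (8.19%) rose and 88 (1.73%) fell. The whole distribution was shifted, with a median of 0.30 for all genes, and other scalings changed the balance: TMM gave 158 rises and 220 falls with an all-gene median of -0.11, and DESeq2 size factors gave 160 and 213 with -0.10. Counts in this gate are therefore to be read against that shift. Neutrophil markers, 3 of 4 of which rose, T cell markers (24.3 and 50.2 CPM in sum), NK cell markers (54.9 and 106 CPM, 2 of 4 rose) and the lower number of UMIs per barcode moved with it, and their part in the shift was not tested. Without the barcodes of 2 or more granulocyte marker UMIs the all-gene median was again 0.30.

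Several cytokine transcripts fell in this gate, against the direction of that shift. IL6 was at 4490 CPM at 2 h, with UMIs in 222 of the 355 barcodes, and at 1099 CPM at 4 h, in 45 of 176. That is 4.09-fold lower (3.90 to 4.28), and without the granulocyte-marked barcodes the levels were 4734 and 1296 CPM. CCL20 fell from 4580 to 1316 CPM (4500 and 1245 CPM without those barcodes) and PTGS2 from 2348 to 811 CPM (2359 and 850 CPM). After thinning to 1000 UMIs, IL6 was seen in 48.3% and 17.4% of the barcodes of the gate (62.5% and 25.6% unthinned) and in 1.08% and 0.137% of the T gate (4.28% and 0.650% unthinned), at median depths of 13680 and 7516.5 UMIs against 4259.5 and 4933. CSF3 was at 4417 and 1988 CPM, CCL8 at 3702 and 1469 CPM, TNF at 200 and 93.4 CPM, TNFAIP6 at 230 and 77.2 CPM (207 and 35.8 CPM without the granulocyte-marked barcodes) and GCH1 at 351 and 137 CPM. IL23A went from 192 UMIs to 1. Of 28 cytokines and chemokines 8 fell and 3 rose with a median of -0.57, and with TMM scaling 14 fell and 2 rose with a median of -0.98.

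Other cytokines, among the most abundant of the gate, were closer to their 2 h level. IL1B was at 20564 and 14359 CPM, CCL3 at 17403 and 12744 CPM, CXCL2 at 61078 and 50235 CPM and CCL4 at 15546 and 8658 CPM. CXCL8 was at 22477 and 23409 CPM and was lower at 4 h without the granulocyte-marked barcodes, at 20675 and 17678 CPM. CXCL5 (66176 and 72948 CPM) and SAA3, an acute phase protein (9419 and 10354 CPM), differed by less than the all-gene shift. IL1B was seen in 100% and 96.9% of thinned barcodes (99.7% and 98.3% unthinned) and CXCL8 in 97.4% and 95% (99.2% and 99.4% unthinned), where IL6 was in a minority at 4 h. The antagonist IL1RN was at 5441 and 8211 CPM in the whole gate, and at a higher level in the granulocyte gate. Both values of the monocyte gate include the granulocyte-marked barcodes, whose part in the difference was not tested. CSF1 rose from 164 to 830 CPM, or from 73.0 to 254 CPM without the granulocyte-marked barcodes.

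**Figure D5:**
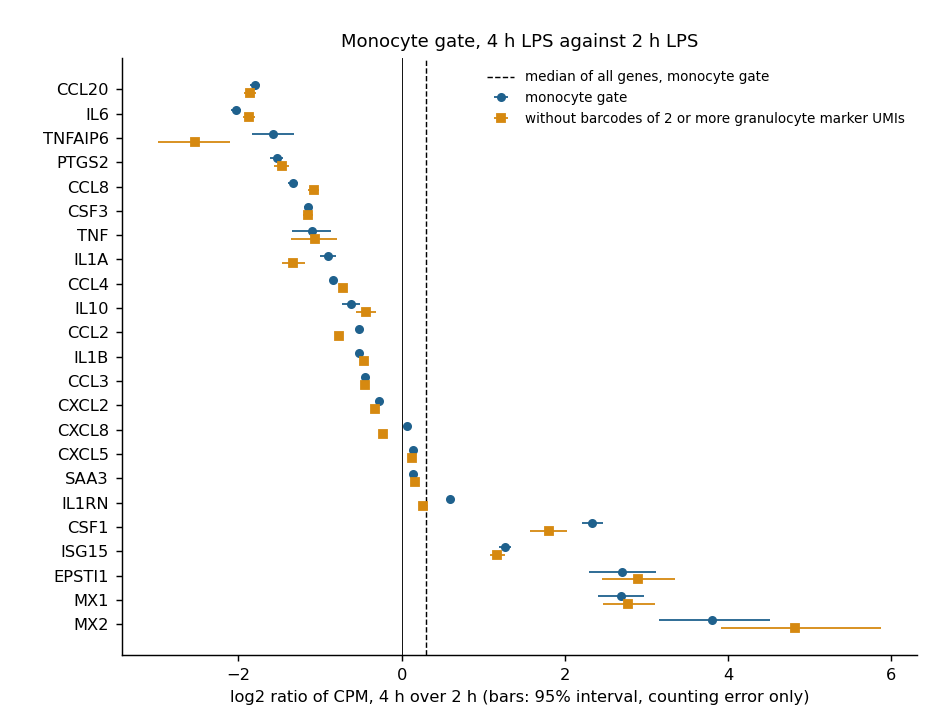
Log2 ratio of 4 h over 2 h in the monocyte gate for 23 genes, as circles for the whole gate and squares without the barcodes of 2 or more granulocyte marker UMIs; bars are 95% intervals for counting error and the dashed line is the all-gene median of the gate, 0.30. IL6 and CCL20 lie far left in both, CXCL8 changes side (22477 to 23409 CPM, and 20675 to 17678 CPM), and MX1 and MX2 lie far right.

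Lowest ratios of the gate among genes of 200 or more UMIs were DEFB13 (111 to 12.4 CPM), OLR1 (44.2 to 9.18 CPM), CYBB, the membrane subunit of the phagocyte oxidase (160 to 37.3 CPM, and 166 to 39.0 CPM without the granulocyte-marked barcodes), IL6, SLAMF1 (325 to 80.5 CPM) and MARCHF3 (81.8 to 22.1 CPM). Highest were TNFSF14 (9.66 to 88.6 CPM), EPSTI1 (14.4 to 93.4 CPM), MX1 (29.8 to 191 CPM, 6.42-fold, 5.27 to 7.84), IDO1, the tryptophan-degrading enzyme (23.4 to 146 CPM, in 22 and 15 barcodes), CXCR1 (17.1 to 96.2 CPM) and USP18 (14.4 to 76.7 CPM). The neutrophil chemokine receptor CXCR1 helps to set the granulocyte gate, and without the marked barcodes it was at 1.37 and 5.46 CPM, from 6 and 7 UMIs. Without them TNFSF14 was at 9.13 and 38.2 CPM, OLR1 at 46.1 and 4.68 CPM and USP18 at 9.35 and 42.9 CPM. MX2 rose from 4.73 to 65.9 CPM and ISG15 from 664 to 1594 CPM (574 and 1292 CPM without the marked barcodes). Of 31 interferon-stimulated genes 29 rose, with a median of 1.88; with either other scaling 22 rose, with medians of 1.47 and 1.48. In the gate TLR4 was at 88.0 and 148 CPM, LY96 at 40.3 and 61.0 CPM and CD14, which helps to set the gate, at 1317 and 1610 CPM. The LPS receptor list had a median of 0.42 over 12 genes there, beside an all-gene shift of 0.30 on the log2 scale. With TMM scaling and DESeq2 size factors the list median was 0.02 and 0.03. VCAN was at 709 and 328 CPM and DEFB7 at 787 and 364 CPM, whereas the alarmins S100A8 (3307 and 4185 CPM) and S100A12 (4645 and 6529 CPM) were higher, within 2-fold.

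The mixed barcodes kept out of the gates held a larger part of the IL6 and CCL20 UMIs at 4 h. Their part of all UMIs was also larger, at 16.6% and 19.8%, while that of the monocyte gate was 7.63% and 3.28%. For IL6, 52.7% of the UMIs were in the monocyte gate and 42.4% in mixed barcodes at 2 h, and 28.9% and 64.6% at 4 h. For CCL20 the shares were 48.0% and 44.9%, then 32.4% and 61.9%. In the mixed barcodes IL6 was at 1662 and 407 CPM and CCL20 at 1968 and 416 CPM, so that both fell there as well.

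The granulocyte gate, with 121 and 83 barcodes of low depth, gave 107 rises (17.5%) and 30 falls (4.89%) among 613 genes. It too was shifted, by a median of 0.27, and TMM gave 37 and 88 and DESeq2 size factors 46 and 74, with medians of -0.22 and -0.15. IFIT2 had 7 UMIs at 2 h and 223 at 4 h, in 5 and 15 barcodes, 40.8% of the latter in a single one. ISG15 was at 3286 and 7746 CPM. Next came BATF (251 to 1205 CPM), CCL5 (356 to 1540 CPM, 64.8% from 1 barcode), USP18 (251 to 1078 CPM), LYN (336 to 1292 CPM) and UBD (386 to 1339 CPM). Of 19 interferon-stimulated genes 17 rose, median 1.67, while 11 rose with TMM (1.18) and 13 with DESeq2 size factors (1.26). Falls were led by S100A8 (1987 to 442 CPM, 68.7% from 1 barcode), the phosphodiesterase PDE4B (2032 to 576 CPM), TNFAIP6 (1069 to 328 CPM), CCL4 (2854 to 924 CPM), CDKN1A (1861 to 609 CPM) and AREG (1174 to 408 CPM). CXCL8 was at 100089 and 74990 CPM and IL1RN at 29599 and 34894 CPM.

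The remaining lists moved little over all barcodes. MHC class I presentation had no rise or fall among 18 genes, though 17 were higher at 4 h, median 0.19. The proteasome activators PSME1 and PSME2 were at 313 and 406 CPM and at 247 and 334 CPM, and the peptide transporter TAP1 at 324 and 362 CPM. MHC class II presentation had a median of -0.31 over 12 genes, with BOLA-DRA at 1270 and 1012 CPM and IFI30 at 628 and 373 CPM. T and NK cell activation had 2 falls among 31 and a median of 0.08, and B cell activation 1 fall among 25 and a median of -0.17. T cell quiescence and homing (median -0.06 over 18 genes, CCR7 at 335 and 313 CPM), heat shock and chaperones (0.14 over 17) and ATF4 targets (0.11 over 21, the proline enzyme PYCR1 at 11.4 and 22.2 CPM) had no rise or fall. Glycolysis and hypoxia had none among 24, with LDHA at 189 and 178 CPM and a median of 0.00 that turned to -0.06 and -0.07 with the other scalings. Markers of other cells were also measured. Platelet markers summed to 117 and 80.2 CPM, erythroid to 39.4 and 24.3 CPM, dendritic cell to 361 and 324 CPM, plasma cell to 1777 and 1392 CPM and γδ T cell to 135 and 147 CPM.

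Genes that rose were often neighbours in the genome. Of 82 matched by name to RefSeq gene models of ARS-UCD2.0, 19 (23.2%) had another riser within 2 genes, against 1.57% of all 10528 matched genes. They formed the pairs and groups MX1 and MX2, RSAD2 and CMPK2, IFIT2, IFIT3 and IFIT5, IFI44 and IFI44L, HERC5 and HERC6, the OAS genes, DTX3L and PARP14, and ISG15 with AGRN. Of 116 genes that fell 13 (11.2%) had a neighbour that fell, against 2.27% of all, among them DEFB10, DEFB7 and DEFB1, IL22 and IFNG, and CXCL3 and GRO1. Similar genes in clusters may share counts, and the files' own build was ARS-UCD1.2, so no coordinates are given.

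Chromatin accessibility was measured in separate scATAC-seq libraries of the same blood, with 4172 barcodes and 30250143 counts at 2 h and 3231 and 26837579 at 4 h. The median log2 ratio of 4 h over 2 h was 0.01 over 9568 genes, with a 5th to 95th percentile of -0.31 to 0.21. Of these 9568 genes 4951 were above 0. The median was 0.15 for 39 interferon-stimulated genes, 33 of them above 0, and -0.08 for 22 cytokines and chemokines, 8 above 0. Among all genes that rose in RNA, 48 of 74 were above 0 (median 0.08), and among those that fell 34 of 82 (median -0.03). MX2 was at 123 and 146 CPM of accessibility, RSAD2 at 70.8 and 76.5 CPM, IFI44 at 12.6 and 18.2 CPM and OAS1Y at 11.6 and 17.2 CPM, while MX1 was lower at 4 h, at 12 and 6.07 CPM. Lower values were also found for IL6 (10.5 and 7.49 CPM), CXCL8 (30.9 and 17.6 CPM), IL1B (10.0 and 1.97 CPM) and PTGS2 (1.52 and 0.484 CPM). IL1B had 303 and 53 counts, and PTGS2 had 46 and 13. In contrast, CSF3 and F3, which fell in RNA, were higher in accessibility at 4 h, with log2 ratios of 0.47 and 0.38. All these values are sums over the barcodes of a library without gates, and the part of a changed cell mix was not tested. Effectors had a median of -0.15 over 16 genes, 4 above 0, but host defence genes, which fell in RNA, had 0.24 over 7, 6 above 0.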

How the data were processed

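Blood of 4 animals was pooled before treatment, and each treatment gave 1 scRNA-seq library made with 3' capture, which counts transcript ends. As deposited by the authors, the RNA values are unnormalized UMI counts of each gene in each barcode, from Cell Ranger runs against ARS-UCD1.2. The scATAC-seq values are counts as well, with no rule for placing fragments on genes given in the sources used here.

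All barcodes with at least 200 genes were kept, without an upper limit. The T gate needed at least 2 UMIs of CD3D, CD3E and CD3G. The B gate needed at least 3 of a marker sum that includes CD79A, CD79B and MS4A1 (not every gene of it is reported here). The NK gate needed at least 1 of NCR1. At least 3 of CD14, CSF1R, CD68 and CLEC7A set the monocyte gate, and 2 of CSF3R, CXCR1 and CXCR2 the granulocyte gate. T, B and monocyte gates allowed at most 1 UMI of each other's markers, with no limit on NK or granulocyte markers. NK and granulocyte gates allowed at most 1 UMI of each of these 3 marker sums, and the granulocyte gate no NCR1 UMI. Barcodes past several thresholds but within no such rule (mixed) were set aside, and no doublet caller was used. UMIs were summed per library and gate and scaled to CPM. Ratios have exact Clopper-Pearson intervals conditional on the sum of both counts, and a library at 0 was set to 3 counts. Genes with fewer than 50 UMIs over both libraries were left out. Named are the 12 highest and lowest ratios with at least 500 UMIs, the 6 of each gate with at least 200, up to 8 members per list, gate markers, TLR4, CD14 and LY96. Some further list members and values were named after they were seen. Of 404 list genes 383 were in the files.

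Names borne by more than 1 identifier (69) were kept apart by identifier. Python 3.11.15, numpy 2.4.6, scipy 1.17.1 and pandas 2.3.3 were used. edgeR 4.0.16 (TMM) and DESeq2 1.42.0 size factors, in R 4.3.3, served as other scalings only, and neither was used for a test. The ratio step was tested on simulated data. Members and gene lists were chosen with earlier results of these data known. Alternatives were other scalings, UMI minimums, a pseudocount, stricter gates, thinning and the study's limits on cells.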

Additional observations from a re-analysis of the deposited data

Results flagged for a closer look

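Some results had opposite directions in different gates. The T and NK cell activation list had a median log2 ratio of 1.11 over 9 genes in the monocyte gate and -0.95 over 9 genes in the NK gate. In the monocyte gate T cell markers (24.3 and 50.2 CPM in sum at 2 h and 4 h) and NK cell markers (54.9 and 106 CPM) were higher at 4 h as well, and their part in this was not tested. AREG, a ligand of the EGF receptor, had a log2 ratio of 1.01 in the monocyte gate, -1.05 in the B gate and -1.52 in the granulocyte gate. BATF was at 2.26 in the granulocyte gate and -1.41 in the NK gate, and MARCHF3 at 1.31 in the T gate and -1.89 in the monocyte gate. With 1 library a side, none of these differences was tested. MARCHF3 in the T gate rested on 24 and 56 UMIs.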

How the results depend on the processing

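No paired analysis was possible because each treatment had 1 library, and no replicate could be left out for the same reason. The results tried were 18 list medians over all barcodes, counts of rises and falls, gate shares and the share of barcodes with ISG15. Values stayed within the spread set for them in 149 medians, 47 counts and 11 gate shares, and moved further in 13, 51 and 19. Directions turned for the monocyte and B gate shares with thinning, from lower to higher and from higher to lower at 4 h, and TMM and DESeq2 scaling turned the balance of rises and falls in the monocyte and granulocyte gates. The values that moved are given here, as rises and falls where there are 2 numbers.

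With a minimum of 20 UMIs the counts were 197 and 206 over all barcodes, 129 and 122 in the T gate, 190 and 239 in the B gate, 141 and 131 in the NK gate, 913 and 163 in the monocyte gate and 252 and 65 in the granulocyte gate. With 200 UMIs they were 67 and 80, 44 and 26 (T), 0 and 4 (NK), 91 and 39 (monocyte) and 34 and 15 (granulocyte), with 56 falls in the B gate. A pseudocount of 1 CPM gave 60 and 62 over all barcodes, 44 and 33 in the T gate and 67 falls in the B gate. With the whole counting interval past 2-fold they were 59 and 66, 33 and 25 (T), 62 and 38 (B), 3 and 8 (NK), 113 and 30 (monocyte) and 31 and 14 (granulocyte). TMM gave 158 and 220 in the monocyte gate and 37 and 88 in the granulocyte gate, and DESeq2 size factors 160 and 213, and 46 and 74. The study's limits of 3000 genes and 20% mitochondrial UMIs gave 258 falls over all barcodes. Gate thresholds raised by 1 UMI gave 11 falls in the NK gate. Monocyte markers at least 5 times those of T and B cells, a gate added after the data were seen, gave 642 rises. For the other gates and settings the cause of these moves was not tested, while fewer genes qualify at higher minimums by construction.

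The CXCR3 ligand median, which is CXCL10 alone at 50 UMIs, was 1.66 with DESeq2 size factors, 1.25 with 20 UMIs, 1.44 with barcodes weighted equally and 1.67 over gated barcodes alone. Under the study's limits the medians were -1.30 for cytokines, -1.20 for effectors and -1.75 for host defence. Over gated barcodes alone they were -1.31 for cytokines, -1.28 for effectors and -0.087 for the LPS receptor list. Immediate early genes were at -0.051 with barcodes weighted equally, and T cell quiescence at -0.12 and -0.13 with TMM and DESeq2 scaling.

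Gates set after thinning to 1000 UMIs held 12.2% (T), 10.5% (B), 0.352% (NK), 1.36% (monocyte) and 0.844% (granulocyte) at 2 h, and 12.2%, 9.79%, 0.366% and 1.46% of the first 4 at 4 h. Thresholds raised by 1 UMI gave 33.6% (T), 23.5% (B), 0.25% (NK) and 0.634% (granulocyte) at 2 h, and 37.6%, 25%, 0.414% and 0.765% at 4 h. The study's limits gave 44.7% and 48.4% in the T gate. ISG15 was seen in 41.5% and 69.0% of barcodes without thinning and in 31.6% and 59.7% with 2000 UMIs.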
